A study of Mus musculus with 8 samples.

Results

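This account follows 10 genes of the epidermal growth factor (EGF) family in mouse hair follicle stem cells (HFSCs), chosen by symbol from 28793 gene symbols in the deposited expression tables. They are the ligand genes Areg, Ereg, Hbegf, Tgfa, Btc and Epgn, the receptor genes Egfr, Erbb2 and Erbb3, and Errfi1, which encodes an inhibitor of the receptors. Each symbol had 1 row in each table. Of the 8 samples of the series, 4 are RNA sequencing libraries of HFSCs sorted by flow cytometry from back skin, and they form 2 pairs with 1 library in each group. The first pair came from female C57BL6/129Sv mice at day 99 that carried the K15CrePGR driver and a Rosa-YFP reporter, with Ctnnb1, which encodes β-catenin, floxed on 2 alleles in the cKO library and on 1 allele in the Het library. K15CrePGR is a Cre recombinase under a Krt15 promoter that a progesterone receptor ligand switches on, so deletion is aimed at bulge cells and can differ between cells. The growth protocol places this pair in telogen and the series design at the onset of anagen. The second pair came from male C57BL6 mice at day 24 with 1 copy of the Axin2-LacZ reporter (Axin2LacZ/+), as follicles went from rest (telogen) into growth (anagen); bulge cells were sorted by reporter activity into a LacZ-positive and a LacZ-negative library. The other 4 samples, of chromatin immunoprecipitation, were not used here.

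EGF family ligands are made as membrane-bound precursors, and proteases release them at the cell surface. The free ligand joins receptors of the ErbB family into dimers, whose kinase activity feeds the RAS to ERK pathway and phosphoinositide 3-kinase. In skin, EGFR signalling supports keratinocyte growth and shapes the hair coat and cycle: mice that lack Tgfa or carry a weak Egfr allele have wavy hair.

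Values are FPKM, fragments per unit of transcript length, scaled to the library, so levels can be compared between genes. They hold no counts and the depth is unknown, and with 1 library per group no difference has a replicate check or a test. Among rows below 0.1 FPKM in both libraries, the most frequent ratio of values was sought only among ratios close to equal. It put 1 read at 1.04 times as much FPKM in the library labelled cKO as in the library labelled Het. In LacZ-positive cells it put 1 read at 0.928 times as much as in LacZ-negative cells. Near these ratios lay 352 of 1918 such rows in the first pair and 224 of 1671 in the second. A large difference in depth could not have been found this way. Differences are given on the log2(FPKM + 1) scale, first-named library minus second, for genes that reached 1 FPKM in at least 1 library of the pair, and a size of 1 or more is called 2-fold. Ctnnb1 stood at 370 FPKM in the library labelled cKO and 251 FPKM in the library labelled Het, opposite to a loss. A gene-level value does not resolve the deleted part, so it does not check the labels, and these libraries are called by their labels. The Wnt target Axin2 stood at 2.12 FPKM in the library labelled cKO and 16.3 FPKM in the library labelled Het, and at 19.0 FPKM in LacZ-positive and 9.10 FPKM in LacZ-negative cells. The bulge markers fitted the labelled cell type in the first pair, with Krt15 at 7528 FPKM in the library labelled cKO and 6208 FPKM in the library labelled Het. Krt15 stood at 5951 FPKM in LacZ-positive cells but is listed at 0 in the LacZ-negative library, and Cd34 stood at 223 FPKM in LacZ-positive and 516 FPKM in LacZ-negative cells.

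In all 4 libraries the receptor genes stood far above the ligand genes. Summed over the 6 ligands, the library labelled cKO held 8.52 FPKM and the library labelled Het 8.57 FPKM, while LacZ-positive cells held 20.5 FPKM and LacZ-negative cells 8.22 FPKM. Summed over Egfr, Erbb2 and Erbb3, the level was 75.1 FPKM in the library labelled cKO and 81.8 FPKM in the library labelled Het, and 92.3 FPKM in LacZ-positive and 70.3 FPKM in LacZ-negative cells. The receptor sum was thus 8.82 times the ligand sum in the library labelled cKO and 9.54 times in the library labelled Het. It was 4.50 times the ligand sum in LacZ-positive and 8.55 times in LacZ-negative cells. The libraries of the 2 pairs differ in strain, sex, age and table, and no test was made between pairs.

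**Figure D1:**
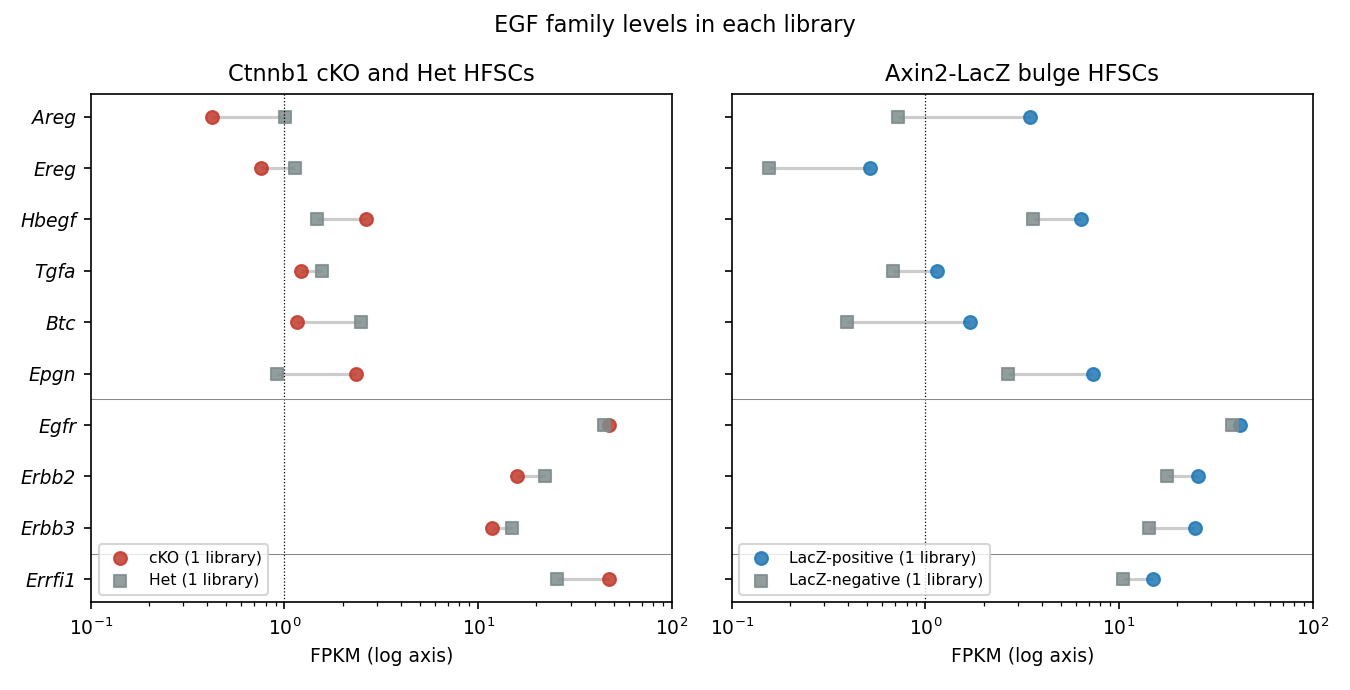
FPKM of the 10 EGF family genes (log axis) in cKO and Het HFSCs (left) and in LacZ-positive and LacZ-negative bulge HFSCs (right); each point is 1 library, a grey line joins the libraries of a pair, and the dotted line marks 1 FPKM. Egfr lies between 38.2 and 47.4 FPKM in all 4 libraries, every ligand lies at 7.32 FPKM or below, and all 10 genes are higher in LacZ-positive than in LacZ-negative cells.

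The LacZ pair compares bulge cells by whether the Axin2 reporter was active. Every one of the 10 genes was higher in LacZ-positive cells, by ratios of 1.69 (Tgfa) to 4.81 (Areg) for the ligands and 1.10 (Egfr) to 1.72 (Erbb3) for the receptors. Areg and Epgn were higher by 2-fold or more. Of the 10 genes, 9 passed 1 FPKM in either library, and 2 of the 9 were at 2-fold or more, against 7.27% of the 13283 genes that passed (4.67% higher and 2.60% lower). Higher values at any size were held by 36.6% of those genes and lower values by 63.4%, and their median difference was -0.13. The share depends on level. Where the higher library lay at 1 to 10 FPKM, as for the ligands that passed, 47.5% of genes were higher. At 10 FPKM or more, as for the receptors and Errfi1, 29.5% were higher. Areg, Tgfa and Btc passed through LacZ-positive cells alone, so they could only have been higher there, and Ereg did not pass.

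The libraries of this pair are not centred on each other: genes at 5 FPKM or more in both had a median difference of -0.17. With differences centred on that median, all genes held 804 higher and 224 lower at 2-fold or more, against 620 and 346 as deposited. Upper-quartile scaling gave 754 and 242, and rescaling to a common total without mitochondrial, small RNA, Gm and Rik symbols gave 678 and 105 among 11309 genes. Each of these settings raised the median of the members, and all 3 added Btc to those at 2-fold or more. With a pseudocount of 5 none of the 9 was at 2-fold or more (Areg 0.57, Epgn 0.68, median 0.40), and with a minimum of 5 FPKM only Epgn was, since Areg no longer passed.

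Among the ligands, Areg encodes amphiregulin, a ligand of EGFR, and had the largest difference on this scale (Epgn did with a pseudocount of 5). Its level was 3.47 FPKM in LacZ-positive and 0.722 FPKM in LacZ-negative cells, a ratio of 4.81 and a log2 difference of 1.38. Of the genes that passed, 2.65% had a higher difference. Epgn, which encodes the EGFR ligand epigen, stood at 7.32 FPKM in LacZ-positive and 2.66 FPKM in LacZ-negative cells, a log2 difference of 1.18, with 3.51% of genes above it. It was the most abundant ligand in LacZ-positive cells, with 35.7% of the ligand sum there and 32.4% in LacZ-negative cells. Btc encodes betacellulin, which binds EGFR and ErbB4. Its level was 1.71 FPKM in LacZ-positive and 0.394 FPKM in LacZ-negative cells, a ratio of 4.34. The log2 difference of 0.96 was just under the 2-fold line, and with a pseudocount of 0.1 it was 1.87. Hbegf encodes heparin-binding EGF-like growth factor and stood at 6.34 FPKM in LacZ-positive and 3.60 FPKM in LacZ-negative cells, a log2 difference of 0.67. It made up 30.9% of the ligand sum in LacZ-positive cells and 43.8% in LacZ-negative cells. Thus Hbegf was the most abundant ligand in LacZ-negative cells and came after Epgn in LacZ-positive cells.

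Tgfa, which encodes transforming growth factor α, stood at 1.14 FPKM in LacZ-positive and 0.679 FPKM in LacZ-negative cells, a log2 difference of 0.35. Ereg, which encodes epiregulin, was the lowest ligand in both libraries, at 0.521 FPKM in LacZ-positive and 0.156 FPKM in LacZ-negative cells. Its ratio of 3.34 rests on levels below the minimum.

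Of the receptors, Erbb3, whose product binds neuregulins and has little kinase activity of its own, stood at 24.7 FPKM in LacZ-positive and 14.3 FPKM in LacZ-negative cells, a log2 difference of 0.75. Among all genes that passed, 6.98% had a higher difference, and among those that reached 10 FPKM in this pair, 5.56%. Erbb2, which encodes the partner receptor without a known ligand of its own, stood at 25.7 FPKM in LacZ-positive and 17.7 FPKM in LacZ-negative cells, a log2 difference of 0.51. Egfr was nearly level, at 41.9 FPKM in LacZ-positive and 38.2 FPKM in LacZ-negative cells (0.13). Egfr therefore made up 45.4% of the receptor sum in LacZ-positive cells and 54.4% in LacZ-negative cells. Errfi1 encodes MIG6, which binds the EGFR kinase domain and shuts it off, and is itself induced by EGFR signalling. Its level was 15.0 FPKM in LacZ-positive and 10.5 FPKM in LacZ-negative cells, a log2 difference of 0.47.

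Other groups of genes moved with the ligands in this pair. All 10 genes of the cell cycle list were higher in LacZ-positive cells by 2-fold or more (median 2.42), against 4.67% of all genes. Foxm1, Bub1 and Plk1 of that list passed 1 FPKM through LacZ-positive cells alone, so they could only have been higher there. Of the suprabasal and upper follicle markers, all 9 in the table had higher values, 7 of them past 2-fold, with sums of 3462 FPKM in LacZ-positive and 1216 FPKM in LacZ-negative cells and none at 0. Sprr1b of these markers passed through LacZ-positive cells alone. The part of both lists in the ligand differences was not tested. In such bulk libraries, a larger share of cells of one type and more RNA per cell cannot be told apart. Leukocyte markers summed to 4.85 FPKM in LacZ-positive and 3.51 FPKM in LacZ-negative cells, endothelial markers to 0.521 and 0.248 FPKM in the same order, and melanocyte markers to 18.1 and 13.5 FPKM. Ptprc, which defines leukocytes, stood at 0.0696 FPKM in LacZ-positive and 0.0253 FPKM in LacZ-negative cells.

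**Figure D2:**
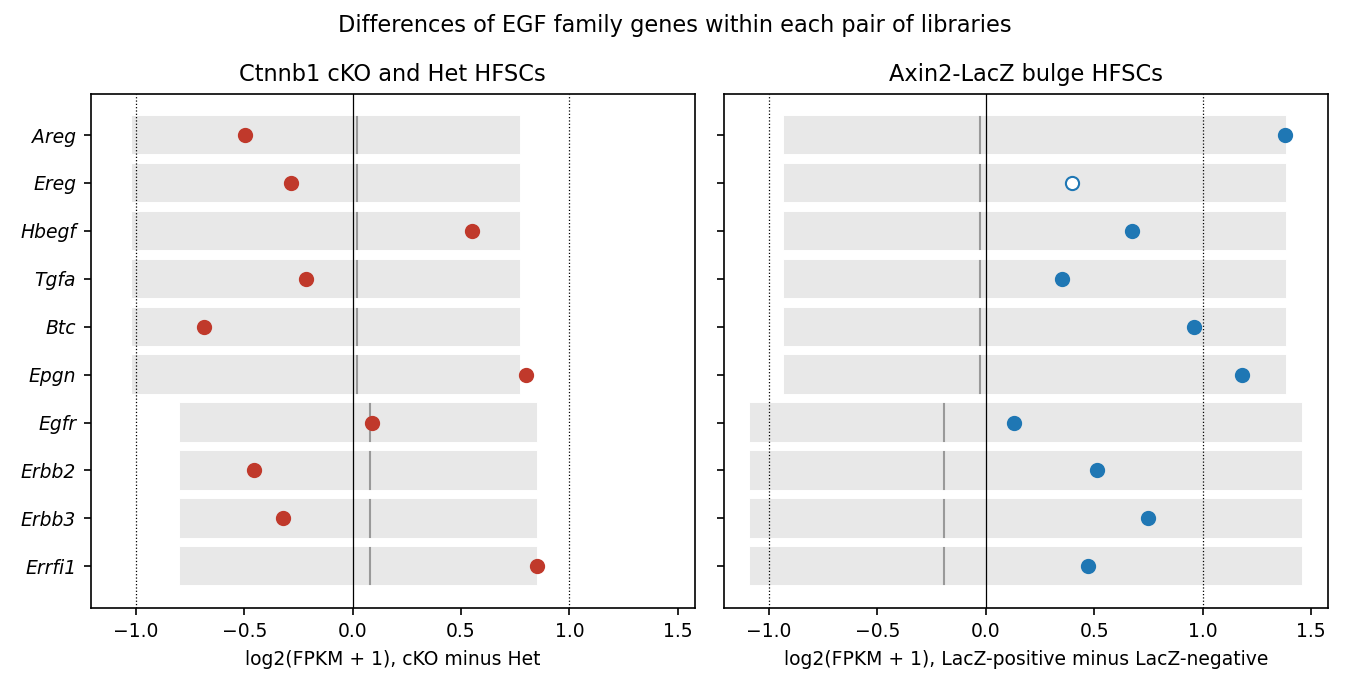
Difference in log2(FPKM + 1) of each EGF family gene, cKO minus Het (left) and LacZ-positive minus LacZ-negative (right); grey bars span the central 95% of genes of like level (higher library at 1 to 10 FPKM, or at 10 FPKM or more), the grey tick is their median, dotted lines mark 2-fold, and the open circle is Ereg, below 1 FPKM in both LacZ libraries. Points on the right all lie above 0, from 0.13 (Egfr) to 1.38 (Areg), and on the left they lie on both sides, from -0.68 (Btc) to 0.85 (Errfi1).

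In the first pair, set apart by the number of floxed Ctnnb1 alleles, the family went both ways. On the log2(FPKM + 1) scale no member reached 2-fold, but the FPKM ratio did for 3 low ligands: 2.55 for Epgn, higher in the library labelled cKO, and 2.38 for Areg and 2.13 for Btc, higher in the library labelled Het. With a pseudocount of 0.1 these 3 passed the line (1.26, -1.08 and -1.03), as did 6.02% of all genes. Areg, Ereg, Tgfa, Btc, Erbb2 and Erbb3 were lower in the library labelled cKO, and Hbegf, Epgn, Egfr and Errfi1 were higher. All 10 passed 1 FPKM, Areg and Ereg through the library labelled Het and Epgn through the library labelled cKO alone. Areg and Ereg could thus only have been lower in the library labelled cKO, and Epgn only higher. None of the 10 was at 2-fold or more, against 4.09% of 13014 genes (1.80% higher and 2.29% lower). Lower values at any size were held by 6 of the 10 and by 39.1% of all genes that passed (60.9% were higher). Where the higher library lay at 1 to 10 FPKM, as for the ligands, 46.6% of genes were lower. At 10 FPKM or more, as for the receptors and Errfi1, 34.0% were lower. The median difference was -0.25 for the 10 and 0.06 for all genes that passed. Leaving out mitochondrial, small RNA, Gm and Rik symbols and rescaling the rest gave 109 higher and 213 lower at 2-fold or more among 11075 genes, against 234 and 298 among 13014 as deposited.

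Cell proliferation genes differed in this pair too: 9 genes of the cell cycle list passed and all 9 were lower in the library labelled cKO. Lower values at any size were held by 39.1% of all genes. Only Top2a and Cdk1 of the 9 reached 1 FPKM in both libraries. The others passed through the library labelled Het alone, so they could only have been lower in the library labelled cKO. Of the 9, 7 were lower by 2-fold or more (median -1.67), against 2.29% of all genes. The list summed to 6.51 FPKM in the library labelled cKO and 45.0 FPKM in the library labelled Het. The part of these genes in the values of the EGF family was not tested.

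The ligand sum was nearly equal, yet its make-up differed. Epgn stood at 2.34 FPKM in the library labelled cKO and 0.920 FPKM in the library labelled Het, a ratio of 2.55 and a log2 difference of 0.80. Of all genes that passed, 2.54% had a higher difference, and of those whose higher library lay at 1 to 10 FPKM, 2.37%. Hbegf stood at 2.62 FPKM in the library labelled cKO and 1.47 FPKM in the library labelled Het (0.55). Btc ran the other way, at 1.16 FPKM in the library labelled cKO and 2.47 FPKM in the library labelled Het, a log2 difference of -0.68. Of all genes that passed, 3.84% were lower than that, and of those whose higher library lay at 1 to 10 FPKM, 5.24%. Areg stood at 0.423 FPKM in the library labelled cKO and 1.01 FPKM in the library labelled Het, a ratio of 0.42 and a log2 difference of -0.50. Together, Hbegf and Epgn were the leading ligands of the library labelled cKO, with 30.8% and 27.5% of its ligand sum, against 17.2% and 10.7% in the library labelled Het. Btc led in the library labelled Het, with 13.6% of the sum in the library labelled cKO and 28.8% in the library labelled Het. Ereg, at 0.754 FPKM in the library labelled cKO and 1.13 FPKM in the library labelled Het, and Tgfa, at 1.21 FPKM in the library labelled cKO and 1.57 FPKM in the library labelled Het, differed less (-0.28 and -0.21).

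**Figure D3:**
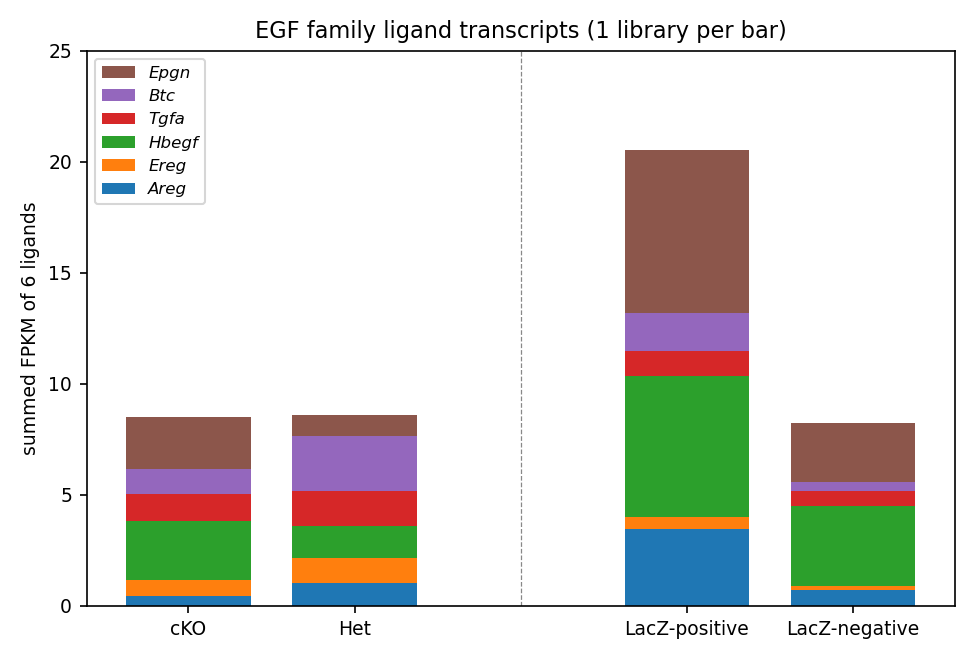
Summed FPKM of the 6 EGF family ligand genes in each of the 4 libraries, with each bar (1 library) split by ligand; the dashed line separates the pairs. The LacZ-positive bar reaches 20.5 FPKM, and the other bars lie between 8.22 and 8.57 FPKM with different make-up.

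Of the receptors, Egfr was nearly level at 47.4 FPKM in the library labelled cKO and 44.6 FPKM in the library labelled Het (0.09, or -0.003 after rescaling without mitochondrial and small RNA symbols). Erbb2 stood at 15.9 FPKM in the library labelled cKO and 22.2 FPKM in the library labelled Het, a log2 difference of -0.46. Erbb3 stood at 11.8 FPKM in the library labelled cKO and 15.0 FPKM in the library labelled Het, a log2 difference of -0.32. Egfr made up 63.1% of the receptor sum in the library labelled cKO and 54.5% in the library labelled Het. Errfi1 had the largest difference of the family in this pair on the log2(FPKM + 1) scale, though its FPKM ratio of 1.84 was below those of Epgn, Areg and Btc. It stood at 47.1 FPKM in the library labelled cKO and 25.7 FPKM in the library labelled Het, a log2 difference of 0.85, and 2.34% of all genes were higher than that. Immediate early genes, which also respond to tissue dissociation, moved in the same direction: 12 of 12 were higher in the library labelled cKO and 9 by 2-fold or more (median 1.24). Of all genes 60.9% were higher there, 1.80% by 2-fold or more. The part of the immediate early genes in the Errfi1 value was not tested. In the LacZ pair all 12 were higher in LacZ-positive cells and 2 by 2-fold or more (median 0.63). Of all genes 36.6% were higher in that pair, 4.67% by 2-fold or more.

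Areg, Epgn and Errfi1, which had the largest differences on the log2(FPKM + 1) scale in one or the other pair, are shown by the 250 bases before an annotated start. The set of RefSeq (GRCm38.p6) windows at hand held 8 for 7 of the 10 genes. Ereg, Hbegf and Erbb3 had no entry in this set. Motifs were searched on both strands, and the matches did not overlap. The cAMP response element was searched as TGACGTCA and the TATA box as TATAAA. AP-1 sites were searched as TGACTCA and its reverse complement. For TCF/LEF factors the letters were CTTTGNN, where each N was an adenine or a thymine. Capitals mark every match. The windows are Areg chr5:91139349-91139598, Epgn chr5:91027267-91027516 and Errfi1 chr4:150854820-150855069, all on the + strand; for Errfi1 the window of the other annotated start, chr4:150853546-150853795, had no match and is not shown.
Areg: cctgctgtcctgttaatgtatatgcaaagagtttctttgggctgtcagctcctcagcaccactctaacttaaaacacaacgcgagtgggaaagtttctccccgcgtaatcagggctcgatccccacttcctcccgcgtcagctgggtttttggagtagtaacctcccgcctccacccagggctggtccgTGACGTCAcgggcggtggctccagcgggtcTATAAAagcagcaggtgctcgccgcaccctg
Epgn: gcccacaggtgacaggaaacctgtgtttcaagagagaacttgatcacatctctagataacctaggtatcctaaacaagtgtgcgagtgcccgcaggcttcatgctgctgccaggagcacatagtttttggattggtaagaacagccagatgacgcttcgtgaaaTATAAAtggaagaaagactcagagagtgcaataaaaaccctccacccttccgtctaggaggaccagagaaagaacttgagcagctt
Errfi1: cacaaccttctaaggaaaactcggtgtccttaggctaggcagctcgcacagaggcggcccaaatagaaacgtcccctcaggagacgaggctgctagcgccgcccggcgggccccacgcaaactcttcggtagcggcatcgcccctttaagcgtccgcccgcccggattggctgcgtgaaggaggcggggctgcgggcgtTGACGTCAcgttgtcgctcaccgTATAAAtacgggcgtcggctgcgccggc
The Areg and Errfi1 windows each held TGACGTCA, beginning 61 and 51 bases before the start, and TATAAA beginning 31 and 28 bases before it. Epgn held TATAAA 86 bases before the start. TGACGTCA was in 2 of the 8 windows and in 1.55% of all 32851 windows at hand. TATAAA was in 3 of 8 and in 12.4%. The AP-1 letters were in 0 of 8 and in 4.46% of all windows, and the TCF/LEF letters in 0 of 8 and in 14.8%. These matches are letters in a window, not sites.

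On the coordinates of the deposited tables, taken as mm9, 4 of the 6 ligand genes lie side by side on chromosome 5 within 375 kb: Epgn at chr5:91456489-91464241, Ereg at chr5:91503642-91522675, Areg at chr5:91568640-91577458 and Btc at chr5:91786286-91831939. All 4 were higher in LacZ-positive cells. In the library labelled cKO Ereg, Areg and Btc were lower and Epgn, at one end of the group, was higher. Tgfa lies at chr6:86145419-86225151 and Hbegf at chr18:36664582-36675459. Among the receptors, Egfr lies at chr11:16652205-16818161, Erbb2 at chr11:98273783-98300360 and Erbb3 at chr10:128004578-128026708, and Errfi1 lies at chr4:150199841-150243001. The tables give the Erbb2 interval to 4 symbols, so reads of neighbours can enter its value. One of these, 1810046J19Rik, stood at 58.1 FPKM in the library labelled cKO and 50.7 FPKM in the library labelled Het and at 43.6 FPKM in LacZ-positive and 69.0 FPKM in LacZ-negative cells, opposite to Erbb2 in both pairs. A U6 small RNA row moved the same way as Erbb2: it is listed at 0 in the library labelled cKO and at 36.4 FPKM in the library labelled Het, and stands at 85.9 FPKM in LacZ-positive cells but is listed at 0 in the LacZ-negative library. The part of these neighbours in the Erbb2 value was not tested. Egfr and Errfi1 share their intervals with 2 other symbols each, which stood at 1.72 FPKM or below. The 6 ligands and Erbb3 are alone in theirs.

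Set side by side, the pairs share no library. Areg, Ereg, Tgfa, Btc, Erbb2 and Erbb3 were lower in the library labelled cKO and higher in LacZ-positive cells, and Hbegf, Epgn, Egfr and Errfi1 were higher in both. No member was lower in LacZ-positive cells. Ereg was below 1 FPKM in both LacZ libraries, and the small Egfr difference of the first pair changed sign on rescaling. Within the pairs, 60.9% of all genes were higher in the library labelled cKO and 36.6% in LacZ-positive cells. The share of all genes with each combination of directions was not counted, so these combinations have no background. The genes nearest to Areg by its 2 log2 differences (-0.50 and 1.38), among 7906 genes at 5 FPKM or more in all 4 libraries, were Klk7 (-0.55 and 1.42), Psrc1 (-0.53 and 1.44), Arhgap18 (-0.44 and 1.28), Rhbdl2 (-0.49 and 1.24) and the small nucleolar RNA snoZ40 (-0.40 and 1.495), at Euclidean distances of 0.067 to 0.15. Areg itself lay at 3.47 FPKM or below, where the 1 added to FPKM shrinks log2 differences more than at 5 FPKM or more. Its FPKM ratios were 0.42 and 4.81. Klk7 stood at 10.2 FPKM in the library labelled cKO and 15.4 FPKM in the library labelled Het. In LacZ-positive cells Klk7 stood at 111 FPKM, and in LacZ-negative cells at 40.9 FPKM. The likeness thus holds on this scale and not for FPKM ratios. No p is attached to this likeness, which rests on 4 libraries.

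Of Egf, Nrg1, Nrg2, Nrg3, Nrg4 and Erbb4, the other members of the family, 1 passed 1 FPKM in the first pair and 2 in the second. Nrg2, a neuregulin that binds ErbB3 and ErbB4, stood at 3.52 FPKM in LacZ-positive and 6.46 FPKM in LacZ-negative cells, a log2 difference of -0.72 and so opposite to the EGFR ligands. In LacZ-negative cells it stood above each of the 6 ligands. Erbb4 stayed at or below 0.0543 FPKM in all 4 libraries.

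Of 10 genes for ligand shedding and transport, 9 passed in each pair. In the LacZ pair 5 were higher and 4 lower (median 0.11), with Rhbdl2 past 2-fold. Of all genes in that pair, 36.6% were higher, 4.67% by 2-fold or more. Rhbdl2 encodes a rhomboid protease that cleaves within the membrane and stood at 14.4 FPKM in LacZ-positive and 5.52 FPKM in LacZ-negative cells (1.24). Rhbdf2, whose product carries ADAM17 to the surface, stood at 12.1 FPKM in LacZ-positive and 7.65 FPKM in LacZ-negative cells (0.59). Timp3, an inhibitor of metalloproteases, stood at 8.08 FPKM in LacZ-positive and 4.35 FPKM in LacZ-negative cells (0.76), and the metalloprotease gene Adam15 at 40.8 FPKM in LacZ-positive and 82.4 FPKM in LacZ-negative cells (-0.996, just inside the line). In the first pair 3 were higher and 6 lower (median -0.10), none at 2-fold or more, where 60.9% of all genes were higher. Both Rhbdl2 (5.26 FPKM in the library labelled cKO and 7.81 FPKM in the library labelled Het) and Rhbdf2 (5.97 and 8.39 FPKM in the same order) were among the lower ones.

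Of the adaptors and effectors at the receptor, all 13 passed in both pairs and none was at 2-fold or more. Over all genes, 4.09% were in the first pair and 7.27% in the LacZ pair. In the library labelled cKO 10 were higher and 3 lower (median 0.05), where 60.9% of all genes were higher. In LacZ-positive cells 6 were higher and 7 lower (median -0.02), where 36.6% of all genes were higher. Plcg1, a phospholipase bound by active receptors, stood at 51.5 FPKM in the library labelled cKO and 41.0 FPKM in the library labelled Het. The adaptor gene Nck2 had the largest difference of this list in the LacZ pair, at 13.3 FPKM in LacZ-positive and 17.3 FPKM in LacZ-negative cells (-0.36).

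Of 15 negative regulators and endocytosis genes, none was at 2-fold or more in either pair, with medians of 0.05 in both. Over all genes, 4.09% were in the first pair and 7.27% in the LacZ pair. In the library labelled cKO 12 were higher and 3 lower, where 60.9% of all genes were higher. In LacZ-positive cells 9 were higher and 6 lower, where 36.6% of all genes were higher. Hgs was among the lower ones, at 14.3 FPKM in LacZ-positive and 18.5 FPKM in LacZ-negative cells (-0.35). Cbl, whose product marks active EGFR with ubiquitin for degradation, stood at 10.1 FPKM in LacZ-positive and 5.20 FPKM in LacZ-negative cells (0.84). Lrig1, which encodes a membrane protein that lowers ErbB receptor levels and also marks cells of the upper follicle, stood at 39.8 FPKM in LacZ-positive and 23.02 FPKM in LacZ-negative cells (0.77). In the first pair Lrig1 stood at 37.2 FPKM in the library labelled cKO and 30.7 FPKM in the library labelled Het (0.27), with Eps15 at 0.29 and Lrig3 at 0.26.

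Of the ERK response and feedback genes, 6 were higher and 6 lower of 12 that passed in the first pair (median 0.06), where 60.9% of all genes were higher. In the second 5 were higher and 7 lower of 12 (median -0.08), where 36.6% of all genes were higher. Egr1, an early response gene that is also in the immediate early list, stood at 455 FPKM in the library labelled cKO and 178 FPKM in the library labelled Het (1.35), and at 163 FPKM in LacZ-positive and 123 FPKM in LacZ-negative cells (0.41). Phlda1 ran the other way in the first pair, at 8.92 FPKM in the library labelled cKO and 25.1 FPKM in the library labelled Het (-1.39), and stood at 25.1 FPKM in LacZ-positive and 18.1 FPKM in LacZ-negative cells (0.45). Etv4, an ETS factor induced by ERK, stood at 11.1 FPKM in the library labelled cKO and 20.2 FPKM in the library labelled Het (-0.81). Spry1 and Spry2, which encode feedback inhibitors of receptor kinases, were lower in LacZ-positive cells, at 8.996 FPKM against 16.5 FPKM in LacZ-negative cells for Spry1 and 10.5 FPKM against 17.9 FPKM for Spry2.

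**Figure D4:**
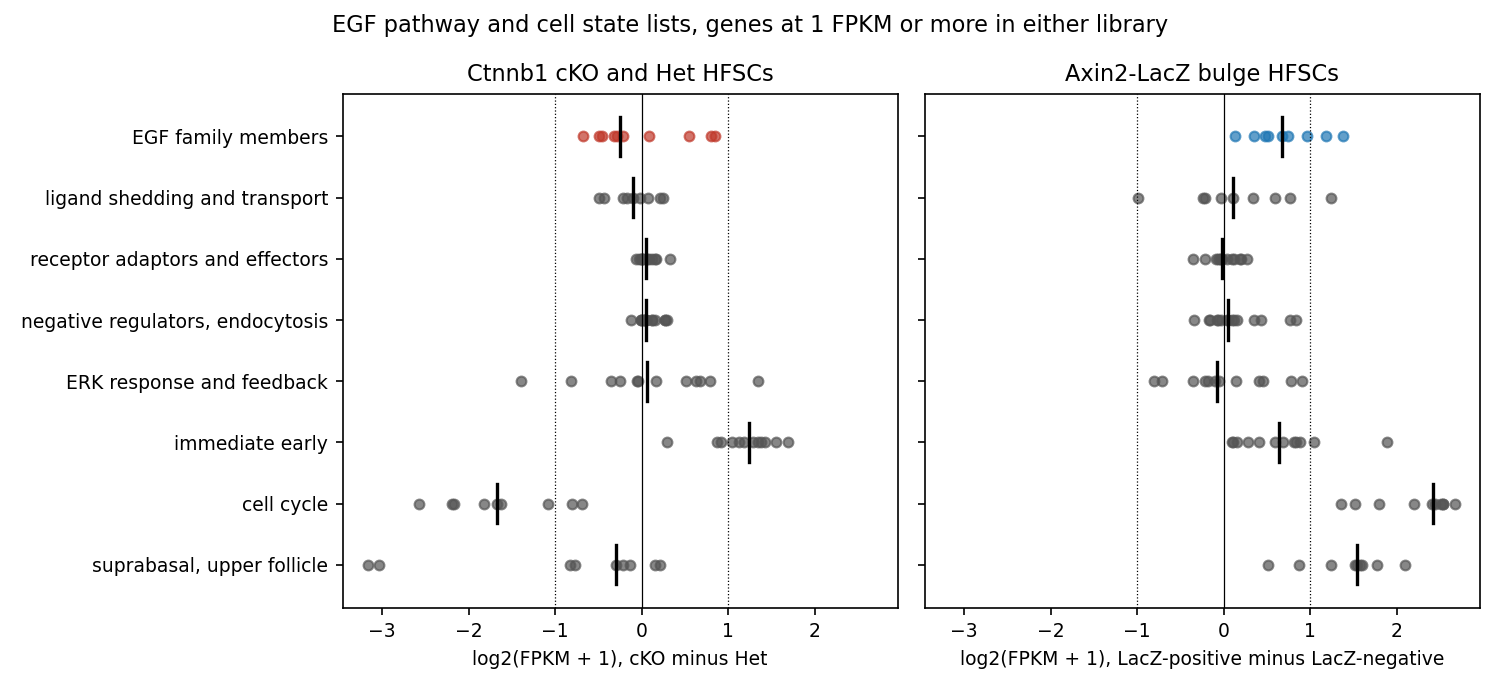
Differences in log2(FPKM + 1) of genes that reached 1 FPKM in at least 1 library of the pair, cKO minus Het (left) and LacZ-positive minus LacZ-negative (right); each point is a gene, black ticks are list medians and dotted lines mark 2-fold. EGF family members have a median of -0.25 on the left and 0.67 on the right, the adaptors lie close to 0 in both, and the cell cycle list has medians of -1.67 and 2.42.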

How the data were processed

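The authors deposited 2 gene tables of FPKM values, 1 per pair of libraries, per the file headers; the first also holds the authors' log2 fold change of cKO over Het, used only as a check (10 of 10 members within 0.01 of the ratio of the FPKM columns). The submitters' processing notes list, with no roles, the builds mm9 and GRCm38 and the tools Cufflinks 2.1.1, TopHat and TopHat2 2.0.4. Per the labels' protocols, all RNA had high integrity numbers and libraries were made with Illumina's mRNA kit and run on a HiSeq. Pooling of mice within a library is not stated in the labels. Coordinates were taken as mm9, since on chromosome 7 they reach 152509964, past the last GRCm38 gene end (145324059). The short mitochondrial transfer RNA mt-Ts1 took up 20.6% to 28.1% of all FPKM in a library. Depth is unknown because FPKM hold no counts, so intervals could not be given.

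In Python 3.11.15 with pandas 2.3.3, 25 symbols that a spreadsheet had turned into dates were restored from Ensembl identifiers, rows of 1 symbol were summed, and log2(FPKM + 1) was subtracted within each pair for genes that reached 1 FPKM in at least 1 library of the pair. No test could be made from single libraries. The counting step was run on a library set against a copy of itself with known changes in some genes. That checks the arithmetic, not the spread between libraries. The 10 members, 7 pathway and state lists and 9 marker lists (1 of whose genes, Plet1, was in neither table) were chosen with earlier results of these data known. Genes named from a pathway list are among its 4 with the largest differences at 5 FPKM or more in either library. Values of Erbb4, Ptprc, Krt15, Cd34, Pdgfra, Dcn, 1810046J19Rik and U6 were added after they were seen. The genes most like a member were ranked by Euclidean distance over both log2 differences, without Gm, Rik, LOC, Mir and Snor names. No member was both at 5 FPKM or more in all 4 libraries and at 2-fold or more, so the member with the largest difference was used. Alternatives were a minimum of 5 FPKM or none, pseudocounts of 0.1 and 5, centring, upper-quartile scaling, rescaling without mitochondrial, small RNA, Gm and Rik symbols, the highest row per symbol, and only symbols alone in their interval.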

Additional observations from a re-analysis of the deposited data

How the results depend on the processing

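In each of the 9 alternatives that gave a value (8 or 9 per member, and none for Ereg in the LacZ pair, where it did not pass), the members kept their directions with 1 exception: Egfr in the first pair, at -0.003 after rescaling without mitochondrial, small RNA, Gm and Rik symbols. Single members kept their side of the 2-fold line in 78 of 81 values of the first pair and 68 of 75 of the LacZ pair. Much of this was fixed in advance. Another minimum, the highest row per symbol and only symbols alone in their interval leave a member's value as it was. A pseudocount cannot turn a sign, so directions could change only with centring, upper-quartile scaling and rescaling. In the first pair the number of members at 2-fold or more became 3 with a pseudocount of 0.1, where 784 of all genes (6.02%) were, and the members' median became -0.086 with a pseudocount of 5 and -0.12 with a minimum of 5 FPKM, which left 4 members. All genes at 2-fold or more numbered 303 with a pseudocount of 5 (2.33%), 322 of 11075 after rescaling (2.91%) and 241 of 7623 with only symbols alone in their interval (3.16%), against 532 of 13014 (4.09%). In the LacZ pair the members at 2-fold or more became 0 with a pseudocount of 5, 1 with a minimum of 5 FPKM (6 members left) and 4 after rescaling, which added Btc and Erbb3 and where 783 of 11309 genes (6.92%) were. Their median of 0.67 became 0.78 with a pseudocount of 0.1, 0.40 with a pseudocount of 5, 0.84 with centring, 0.81 with upper-quartile scaling, 0.91 with rescaling and 0.85 with only symbols alone in their interval. All genes at 2-fold or more numbered 460 with a pseudocount of 5 (3.46%) and 490 of 7789 with only symbols alone in their interval (6.29%), against 966 of 13283 (7.27%). No paired analysis was possible because each group has 1 library. Ligand levels of a few FPKM limit the precision of their differences, and no replicate measures it.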

Other observations

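The remaining marker lists describe what else the libraries held. Basal keratinocyte markers summed to 10237 FPKM in the library labelled cKO and 8243 FPKM in the library labelled Het, and to 8887 FPKM in LacZ-positive and 11831 FPKM in LacZ-negative cells. Hair germ markers summed to 46.7 FPKM in the library labelled cKO and 75.4 FPKM in the library labelled Het. They summed to 54.0 FPKM in LacZ-positive and 90.0 FPKM in LacZ-negative cells, so this sum was lower where the ligand sum was higher. In the LacZ pair Dlx3, Gli1 and Msx2 were lower in LacZ-positive cells and Shh was listed at 0 in both. Cdh3 ran opposite to the sum, at 26.4 FPKM in LacZ-positive and 23.8 FPKM in LacZ-negative cells. Lef1 did too, at 0.130 and 0.106 FPKM in the same order. Of 9 bulge markers, 7 were higher and 2 lower in the library labelled cKO (median 0.21). In LacZ-positive cells 4 were higher and 5 lower (median -0.26). The 4 were Krt15, which is listed at 0 in the LacZ-negative library, and Lgr5 (0.09), Nfatc1 (0.09) and Itga6 (0.05). The 5 ran from Tcf7l1 (-0.26) to Cd34 (-1.21). Of all genes that passed, 60.9% were higher in the library labelled cKO and 36.6% in LacZ-positive cells. Suprabasal and upper follicle markers in the first pair had 2 higher and 7 lower of 9, 2 of them lower by 2-fold or more. Of all genes there, 39.1% were lower, 2.29% by 2-fold or more. Fibroblast markers summed to 23.1 FPKM in the library labelled cKO and 14.7 FPKM in the library labelled Het, and to 10.9 FPKM in LacZ-positive and 18.1 FPKM in LacZ-negative cells. The fibroblast sums rest mostly on Col1a1 and Col1a2, and Pdgfra stood at 0.204 FPKM or below in every library. In the LacZ pair Dcn ran opposite to the sum, at 2.16 FPKM in LacZ-positive and 0.423 FPKM in LacZ-negative cells. In the first pair leukocyte markers summed to 8.56 FPKM in the library labelled cKO and 5.35 FPKM in the library labelled Het, melanocyte markers to 1.54 and 2.58 FPKM in the same order, and endothelial markers to 0.134 and 0.145 FPKM. The leukocyte sums of this pair rest mostly on Cd68 and Cd74, with Ptprc at 0.0201 FPKM in the library labelled cKO and 0.0196 FPKM in the library labelled Het. Merkel, nerve, muscle, fat and blood markers summed to 6.42 FPKM in the library labelled cKO and 8.15 FPKM in the library labelled Het, and to 6.98 FPKM in LacZ-positive and 3.46 FPKM in LacZ-negative cells.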
